A study of Mus musculus with 186 samples.

Results

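Gabra2, Gabra3, Gabra4, Gabra5, Gabrb1, Gabrb2 and Gabrd encode subunits of the GABA-A receptor, and their messenger RNA was followed across 6 brain regions, 2 ages and 3 Akap11 genotypes. The 7 genes were taken by name from a table of 28338 gene symbols, and all 7 passed the low-count filter in every comparison. Poly(A) RNA was sequenced in bulk from frozen mouse brain tissue, dissected into striatum (STR), thalamus (TH), substantia nigra (SN), hippocampus (HP) and the prefrontal (PFC) and somatosensory (SSC) cortex. Mice were 4 weeks (96 libraries) or 12 weeks old (90 libraries) and were WT, heterozygous for the Akap11 mutation (Akap11 +/-, here HET) or homozygous (Akap11 -/-, here KO). Region, age and genotype made 36 groups of 5 or 6 libraries. The Akap11 protein anchors protein kinase A at particular places in the cell. The labels name no Cre driver or promoter and do not state strain, sex or the design of the allele. The labels number the samples without saying which came from separate animals, so p-values measure the spread between these samples only.

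GABA-A receptors are chloride channels opened by the inhibitory transmitter GABA, and each is assembled from subunits of several families. The alpha subunit sets much of the receptor's drug response and its place in the cell. Receptors with alpha2 or alpha3 are known for synaptic inhibition, those with alpha5 are known in hippocampal pyramidal cells, where many lie outside synapses, and those that pair alpha4 with delta lie outside synapses and respond to low ambient GABA. Beta subunits form the GABA-binding face together with alpha subunits, and some carry sites that protein kinase A phosphorylates. Bulk RNA cannot tell fewer cells of a type from less RNA per cell.

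Several of the genes sit in clusters (GRCm38 coordinates, GENCODE annotation). Gabra2 (chr5:70957597-71095849, minus strand), Gabra4 (chr5:71569749-71658308, minus strand) and Gabrb1 (chr5:71658113-72149037, plus strand) lie in this order on chromosome 5. Gabra4 and Gabrb1 start head to head, and their exons overlap by 46 bases on opposite strands. Gabra5 (chr7:57407672-57510059, minus strand) lies on chromosome 7. The antisense RNA gene Gm9962 shares 148 bases, or 4.98%, of the exon sequence of Gabra5. Gabrb2 (chr11:42419757-42629028, plus strand), Gabra3 (chrX:72432681-72656848, minus strand) and Gabrd (chr4:155384980-155398112, minus strand) complete the set.

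RefSeq promoter windows (GRCm38.p6, 250 bases before to 50 after the start) were found for 6 of the 7 genes, Gabrd being the exception. The window of Gabra5 is shown because Gabra5 was the member called between genotypes, and those of Gabra4 and Gabrb1 because they face each other. Their positions are chr7:57510010-57510309 (minus strand), chr5:71658259-71658558 (minus strand) and chr5:71657671-71657970 (plus strand, the first of 2 Gabrb1 windows). Capitals mark matches to the EGR motif GCGNGGGCG on either strand.
Gabra5: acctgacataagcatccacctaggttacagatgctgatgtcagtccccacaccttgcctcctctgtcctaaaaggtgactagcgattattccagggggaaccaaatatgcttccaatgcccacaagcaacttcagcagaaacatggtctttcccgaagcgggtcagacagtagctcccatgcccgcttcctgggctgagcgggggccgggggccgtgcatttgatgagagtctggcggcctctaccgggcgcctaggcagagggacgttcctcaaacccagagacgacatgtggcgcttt
Gabra4: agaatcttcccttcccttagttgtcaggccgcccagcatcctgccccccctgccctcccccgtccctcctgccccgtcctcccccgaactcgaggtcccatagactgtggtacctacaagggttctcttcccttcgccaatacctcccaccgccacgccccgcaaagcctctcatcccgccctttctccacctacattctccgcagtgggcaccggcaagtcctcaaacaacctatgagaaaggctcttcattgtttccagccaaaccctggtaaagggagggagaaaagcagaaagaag
Gabrb1: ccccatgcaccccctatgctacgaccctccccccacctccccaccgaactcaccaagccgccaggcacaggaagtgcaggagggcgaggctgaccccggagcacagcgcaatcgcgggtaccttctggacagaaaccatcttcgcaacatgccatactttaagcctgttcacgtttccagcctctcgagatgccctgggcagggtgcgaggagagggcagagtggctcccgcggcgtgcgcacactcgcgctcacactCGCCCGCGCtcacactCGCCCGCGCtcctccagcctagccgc
The EGR motif is held by 5.55% of the 32851 RefSeq promoter windows and occurs 2 times in the Gabrb1 window shown. Also searched on both strands were the cyclic AMP response element TGACGTCA (in 1.79% of windows), its shorter form TGACG, which the longer motif contains (20.8%), and the AP-1 motif TGANTCA (7.81%). The Gabra5 and Gabra4 windows hold none of the 4 motifs. The first of 3 Gabrb2 windows holds 1 short cyclic AMP element and 1 EGR match.

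Total counts ranged from 20.8 M to 73.3 M per library. Akap11 itself stood at 5.08% to 7.98% of WT in the 12 KO comparisons and at 50.2% to 61.8% in the 12 HET comparisons. Striatal libraries had a mean log2(CPM + 1) of striatal projection neuron markers of 8.81 to 10.35, against at most 7.05 in the other regions, so they matched their label. At 4 weeks 11 libraries stood apart. In striatum KO 51, KO 161, KO 163 and WT 92 had high cortical markers, and in thalamus WT 913, WT 914 and WT 23 had low thalamic markers. In substantia nigra WT 42, WT 92, KO 44 and KO 91 had low dopamine neuron markers, and WT 92 had Akap11 at 46.7 CPM against 195 to 243 in the other WT libraries. The main results that rest on them are given with and without them. Levels are CPM, read counts scaled to library size with the trimmed-mean (TMM) method, over all libraries for regions and ages and within a region and age for genotypes. A call means a Benjamini-Hochberg adjusted p below 0.05 over all genes tested with edgeR's quasi-likelihood test.

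In WT brain each subunit had its own regional distribution, given here as CPM at 12 weeks (mean ± SD, n = 5 libraries per region). Gabra2, encoding alpha2, was at 62.9 ± 9.57 in striatum, 62.6 ± 6.52 in hippocampus and 59.8 ± 7.42 in prefrontal cortex. It was at 41.1 ± 6.52 in somatosensory cortex, 20.3 ± 2.49 in substantia nigra and 13.5 ± 2.41 in thalamus. Libraries of neighbouring regions in this order overlapped, except between somatosensory cortex and substantia nigra.

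Gabra3, encoding alpha3, was highest in cortex, at 217 ± 23.4 in prefrontal and 149 ± 9.86 in somatosensory cortex. Substantia nigra had 118 ± 4.34, thalamus 90.6 ± 15.8, hippocampus 38.0 ± 13.8 and striatum 28.3 ± 5.80. Each step in this order was free of overlap between libraries except the last, from hippocampus to striatum.

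Gabra4, encoding alpha4, was highest in thalamus (424 ± 84.8) and striatum (257 ± 33.4). Somatosensory cortex (128 ± 9.91), hippocampus (107 ± 11.6) and prefrontal cortex (104 ± 17.4) overlapped as neighbours, and substantia nigra was lowest at 29.6 ± 3.01. Gabrd, encoding delta, the partner of alpha4 in receptors outside synapses, was likewise highest in thalamus (198 ± 10.9) and striatum (191 ± 16.3), which overlapped. It was at 117 ± 6.86 in somatosensory cortex, 49.6 ± 5.50 in prefrontal cortex and 31.8 ± 6.68 in hippocampus. In substantia nigra Gabrd was at 0.882 ± 0.898, and no library of that region reached those of the others.

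Gabra5, encoding alpha5, had its highest level in hippocampus, where the 5 WT libraries at 12 weeks read 216, 218, 228, 219 and 230.2 CPM. Prefrontal cortex had 69.4 ± 12.2, somatosensory cortex 32.9 ± 3.09, striatum 24.1 ± 2.97, substantia nigra 21.9 ± 4.85 and thalamus 6.68 ± 2.86. Only striatum and substantia nigra overlapped as neighbours. The mean in hippocampus was 33.3 times that in thalamus.

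The beta subunit genes were more even. Gabrb1, encoding beta1, spanned a 1.89-fold range, from 164 ± 20.2 in hippocampus through 150 ± 23.7 in thalamus and 148 ± 15.8 in prefrontal cortex to 86.6 ± 9.94 in somatosensory cortex. Gabrb2, encoding beta2, spanned a 2.23-fold range, with 254 ± 23.7 in thalamus, 248 ± 18.4 in somatosensory cortex, 200.4 ± 24.5 in substantia nigra and 114 ± 25.0 in hippocampus. For Gabrb2 only somatosensory cortex and substantia nigra were free of overlap as neighbours.

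**Figure D1:**
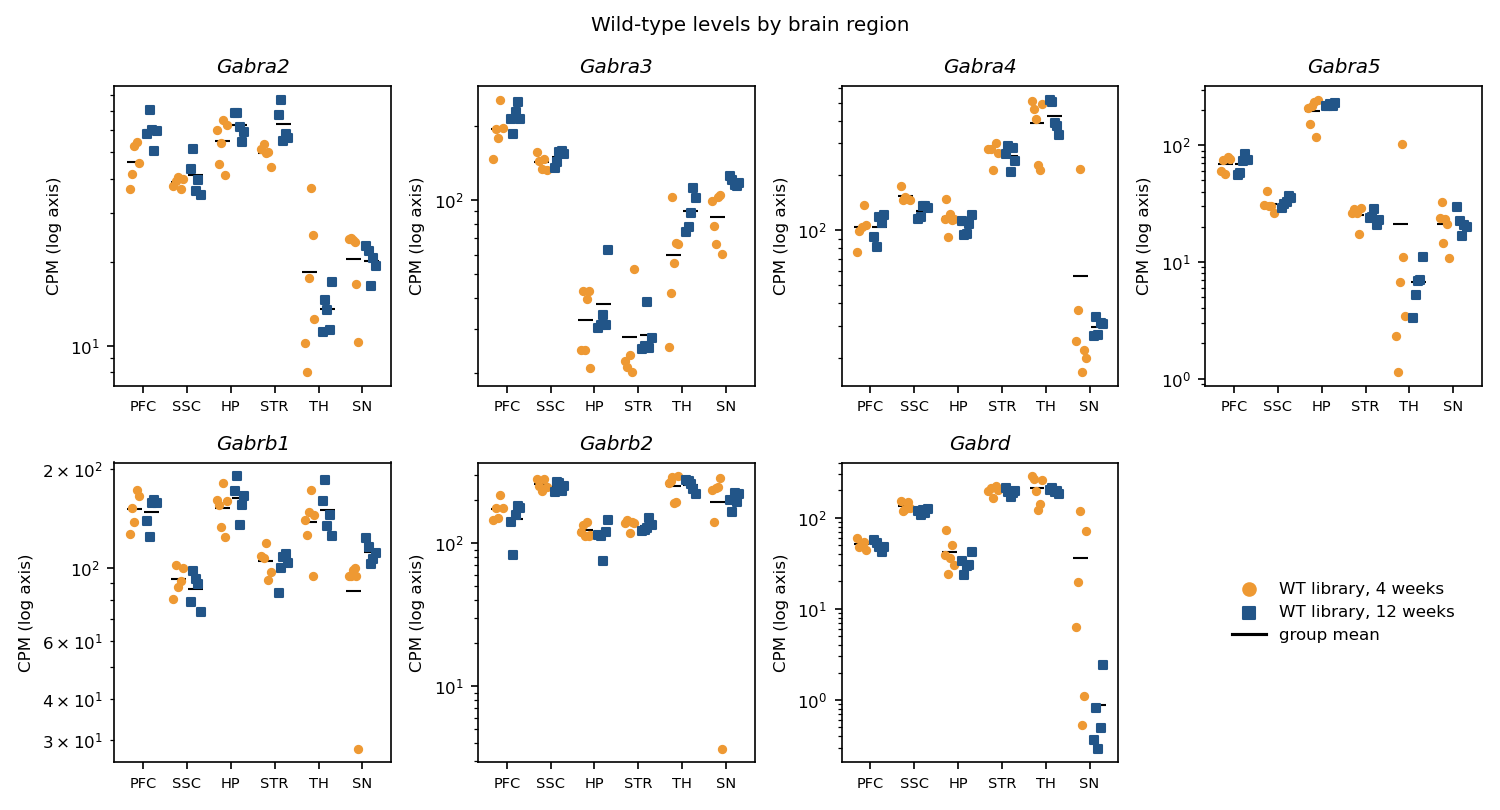
WT level of each subunit gene in 6 brain regions (CPM, log axis, one panel per gene), with a point per library at 4 weeks (circles) and 12 weeks (squares) and a line at the group mean. Gabra5 is highest in hippocampus, Gabra3 in cortex, and Gabra4 and Gabrd in thalamus and striatum, while 2 of the 6 substantia nigra libraries at 4 weeks carry Gabrd at 72.3 and 119 CPM.

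Against the mean of the other 5 regions in WT, 56 of the 84 combinations of gene, region and age were called, 30 higher and 26 lower. Such calls were common among all genes. At 4 weeks 43% of genes were called for PFC, 38.4% for SSC, 36.4% for HP, 52.9% for STR, 48.1% for TH and 59% for SN. At 12 weeks the shares were 57%, 56.4%, 54.4%, 67.3%, 66.9% and 67.8% in the same order. The largest positive difference was Gabra5 in hippocampus at 12 weeks (log2 3.20 ± 0.11 SE, edgeR adjusted p = 3.40e-20), and the largest negative one was Gabrd in substantia nigra at 12 weeks (log2 -6.84 ± 0.27, edgeR adjusted p = 4.43e-19). In striatum at 12 weeks all 7 genes were called: Gabrd (2.62), Gabra4 (1.20) and Gabra2 (0.91) higher on the log2 scale, and Gabra3 (-1.90), Gabra5 (-0.64), Gabrb2 (-0.48) and Gabrb1 (-0.34) lower. At 4 weeks 20 of 42 combinations were called, and leaving out the 11 libraries that stand apart raised the count over both ages to 69 of 84.

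Expressed per kilobase of the longest transcript, so that the 4 alpha genes can be set beside each other, the regions differed in which alpha gene led. Gabra4 made up 69.3% ± 4.19 of the summed alpha level in WT striatum at 12 weeks (mean ± SD, n = 5) and 77.2% ± 6.38 in thalamus. Gabra5 led in hippocampus with 64.0% ± 2.42, and Gabra3 led in substantia nigra (63.3% ± 2.21), prefrontal cortex (49.1% ± 2.28) and somatosensory cortex (44.6% ± 0.502). Gabra2 stayed below 12% in each region. The shares cover these 4 genes only, and they shift with the transcript length used.

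Over the 36 group means of log2(CPM + 1), Gabra4 and Gabrd ran together (Pearson r = 0.934) and so did Gabra2 and Gabra5 (0.808), while Gabra5 and Gabrb2 ran opposite (-0.74). These are descriptions over groups that share regions and libraries and carry no test. Among 13229 genes the closest to Gabra5 were Dscaml1 (0.958), Dgkg (0.949) and Tnip2 (0.944), and the closest to Gabra4 were Shank3 (0.973), Ift57 (0.962) and Ttc19 (0.945). For Gabrd they were Prmt8 (0.963), Cyp46a1 (0.958) and Mapkapk5 (0.951), for Gabra2 Diaph1 (0.982), Map2k1 (0.978) and Slitrk5 (0.975), and for Gabra3 Lemd1 (0.958), Zbtb7c (0.953) and Ankrd42 (0.940). Gabrb1 ran closest to Cpne4 (0.928), Capn3 (0.872) and Gm2762 (0.855), and Gabrb2 to Myo5a (0.925), Krt222 (0.920) and Gtf3c3 (0.900).

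Between 4 and 12 weeks in WT, 5 of the 42 combinations of gene and region were called, while among all genes 19.1% were called in PFC, 27.1% in SSC, 17.7% in HP, 18.5% in STR, 22.6% in TH and 18.6% in SN. The ages came from differently numbered samples, and the labels do not state whether they were sequenced together. Age therefore cannot be told apart from a difference between runs or in processing. The alpha2 gene Gabra2 rose in prefrontal cortex from 36.7, 41.6, 52.3, 54.4 and 45.4 CPM at 4 weeks to 58.1, 71.0, 60.0, 50.2 and 59.7 at 12 weeks. This was a log2 difference of 0.39 ± 0.12 (edgeR adjusted p = 0.0239), and 1 library at 12 weeks lay within the 4-week range. Without PFC library 23 or 142 of 4 weeks, or library 2 of 12 weeks, the adjusted p rose to between 0.0679 and 0.0921.

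In somatosensory cortex Gabra4 and Gabrd were both called lower at 12 weeks. Gabra4 went from between 146 and 175 CPM to between 116 and 136, with no overlap (log2 -0.27 ± 0.10, edgeR adjusted p = 0.0434). The share of all genes without overlap between the ages was not computed. Gabrd went from 135 ± 15.4 to 117 ± 6.86, with overlapping libraries (log2 -0.21 ± 0.07, edgeR adjusted p = 0.0387). Without WT 142 of 4 weeks the adjusted p was 0.137 for Gabra4 and 0.175 for Gabrd, and leaving out other single libraries of either age ended the calls too, 7 of 10 for Gabra4 and 5 of 10 for Gabrd. Neither was called without the 4-week libraries in which under 10% of values were whole numbers (log2 -0.21 and -0.08, adjusted p = 0.116 and 0.364).

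In substantia nigra Gabra3 rose from 99.2, 78.5, 66.4, 103, 104 and 60.4 CPM at 4 weeks to 125, 120.5, 115, 114 and 117 at 12 weeks. The groups did not overlap, a separation whose share over all genes was not computed, and the difference was log2 0.48 ± 0.12 (edgeR adjusted p = 0.00648). Without the libraries that stand apart it was 0.31 (adjusted p = 0.0356). Gabrd in the same region read 6.35, 19.5, 119, 0.524, 1.11 and 72.3 CPM at 4 weeks and 0.365, 0.808, 0.291, 0.496 and 2.45 at 12 weeks. The fitted log2 difference of -5.42 ± 1.30 (edgeR adjusted p = 0.00441) was -2.98 without WT 42 and WT 92 (adjusted p = 0.0215). WT 42 also had a high mean log2 level of thalamic neuron markers, 7.79 against 4.64 to 6.26 in the other WT libraries, and a low level of dopamine neuron markers, 2.88 against 4.28 to 7.54, the lowest of these being WT 92. The part of thalamic tissue in the Gabrd difference was not tested.

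Gabra5 was higher in KO striatum than in WT striatum at both ages, 1.88-fold at 4 weeks and 1.98-fold at 12 weeks. Of 84 combinations of gene, region and age, 2 were called between KO and WT, both of them Gabra5 in striatum, at 4 and at 12 weeks. Among all genes 3.35% were called in striatum at 4 weeks and 4.42% at 12 weeks (1.59% and 1.82% in the higher direction), the calls in the other regions being far fewer. There the shares at 4 and 12 weeks were 0.0125% and 0.0123% in PFC, 0.0564% and 0.0252% in SSC, 0.00609% and 0.00608% in HP, 0.0128% and 0.0064% in TH, and 0.00617% and 0.0364% in SN. At an unadjusted p below 0.05 there were 11 combinations of 84, and the share of all genes at that cutoff was not computed.

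**Figure D2:**
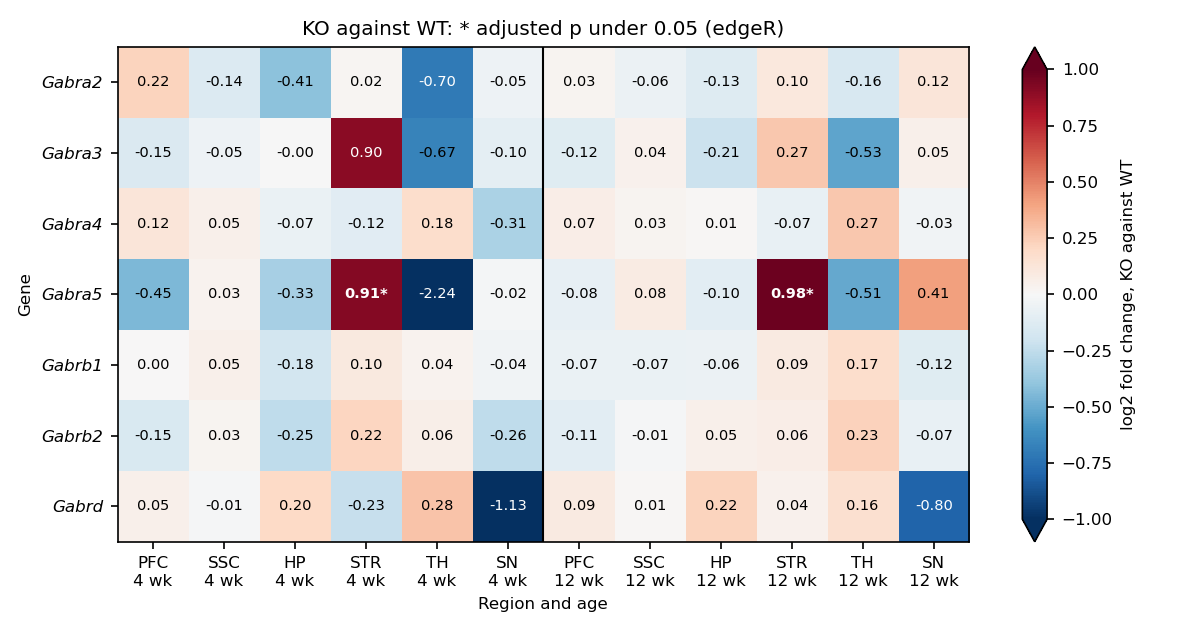
Log2 fold change of KO against WT for each of the 7 genes (rows) in the 12 combinations of region and age (columns), with a star where the edgeR adjusted p is below 0.05. The stars fall on Gabra5 in striatum at 4 weeks (0.91) and 12 weeks (0.98).

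In striatum at 12 weeks the 5 WT libraries had Gabra5 at 23.9, 24.0, 28.8, 20.2 and 22.7 CPM and the 5 KO libraries at 47.3, 52.4, 44.9, 42.7 and 49.4. The lowest KO library lay well above the highest WT library, a separation that 5.6% of all genes showed here and 3.63% at 4 weeks. The difference was log2 0.98 ± 0.10, or 1.98-fold (95% interval of the log2 value 0.79 to 1.18, edgeR adjusted p = 2.43e-05). Leaving out each library in turn kept it between 0.93 and 1.06, and it was called each time.

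At 4 weeks the WT libraries read 23.8, 26.2, 24.9, 15.9 and 26.7 CPM and the KO libraries 34.8, 55.4, 38.6, 57.7 and 35.2. The groups did not overlap here either, though the KO libraries were more spread. The difference was log2 0.91 ± 0.18, or 1.88-fold (95% interval 0.56 to 1.26, edgeR adjusted p = 0.00981), and it stayed called without each library in turn. Without the 4 striatal libraries that stand apart, which leaves 4 WT and 2 KO libraries, it was 0.62 ± 0.19 and no longer called (edgeR adjusted p = 0.109). DESeq2 called Gabra5 at both ages on all libraries (adjusted p = 5.54e-05 and 1.56e-17).

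HET libraries had Gabra5 at 17.8 to 29.1 CPM at 4 weeks and 21.6 to 31.5 at 12 weeks, which overlaps the WT values at both ages. The HET difference from WT was log2 -0.13 ± 0.18 at 4 weeks and 0.13 ± 0.10 at 12 weeks (edgeR adjusted p = 1.00 at both ages). The KO effect on Gabra5 did not differ detectably between the ages, with a log2 difference of 0.06 ± 0.21 (95% interval -0.35 to 0.48, edgeR adjusted p = 0.985).

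**Figure D3:**
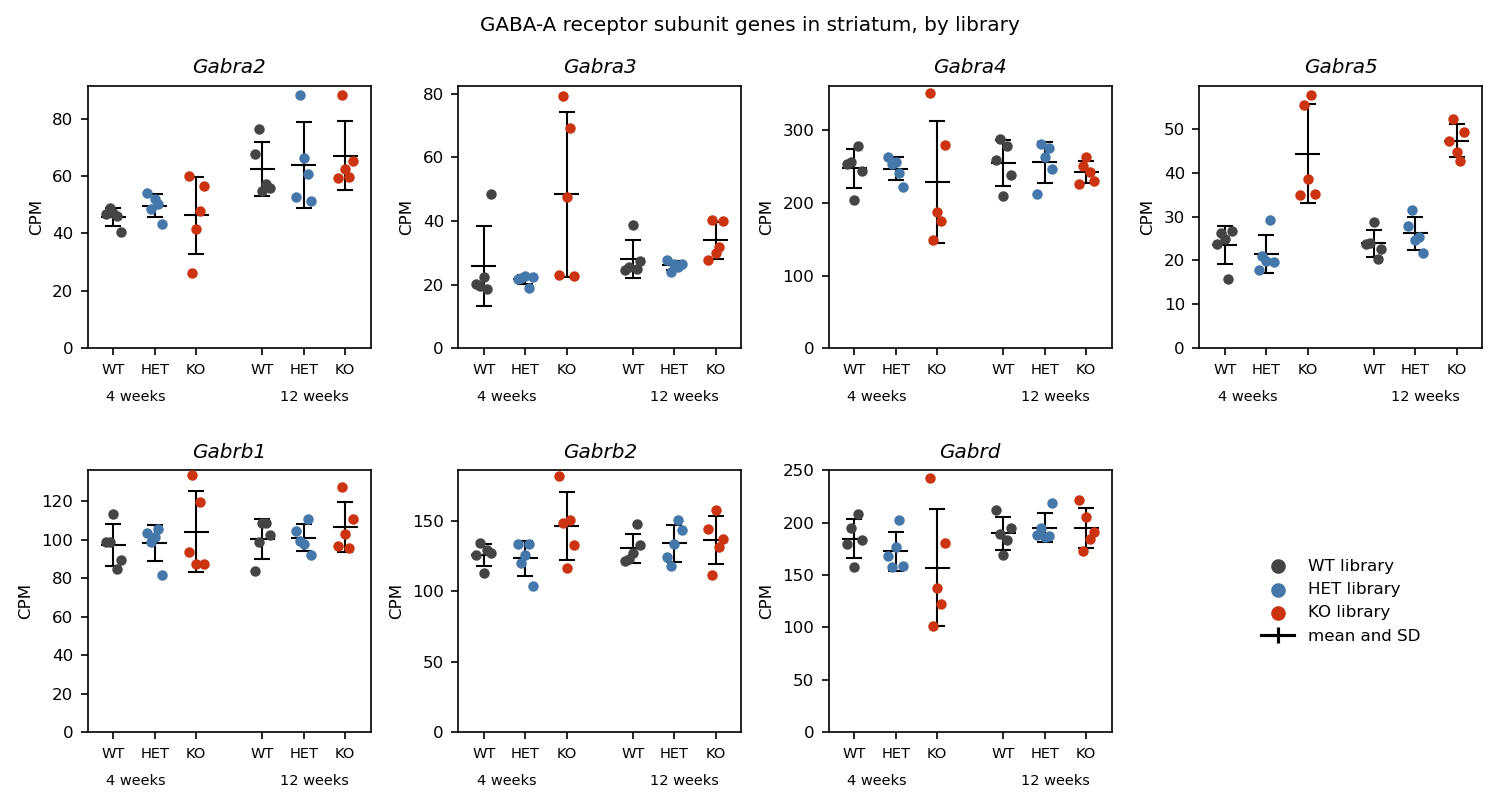
CPM of the 7 genes in each striatal library by genotype and age (points), with the group mean and SD (black). In the Gabra5 panel the KO libraries sit at 34.8 to 57.7 CPM at 4 weeks and 42.7 to 52.4 at 12 weeks, above all WT and HET libraries of the same age.

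The KO effect on Gabra5 in striatum was compared directly with its mean effect in the other 5 regions. At 12 weeks the striatal effect was larger by log2 1.02 ± 0.17 (95% interval 0.68 to 1.36, edgeR adjusted p = 6.59e-05), in a comparison that called 3.34% of all genes. At 4 weeks the estimate was 1.52 ± 0.56 and was not called (edgeR adjusted p = 0.167; 2.34% of all genes were called). The 4-week estimate includes a thalamic WT library, WT 913, with Gabra5 at 102 CPM against 1.08 to 10.6 in the other 5, and it was 0.87 without the libraries that stand apart (adjusted p = 0.117).

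**Figure D4:**
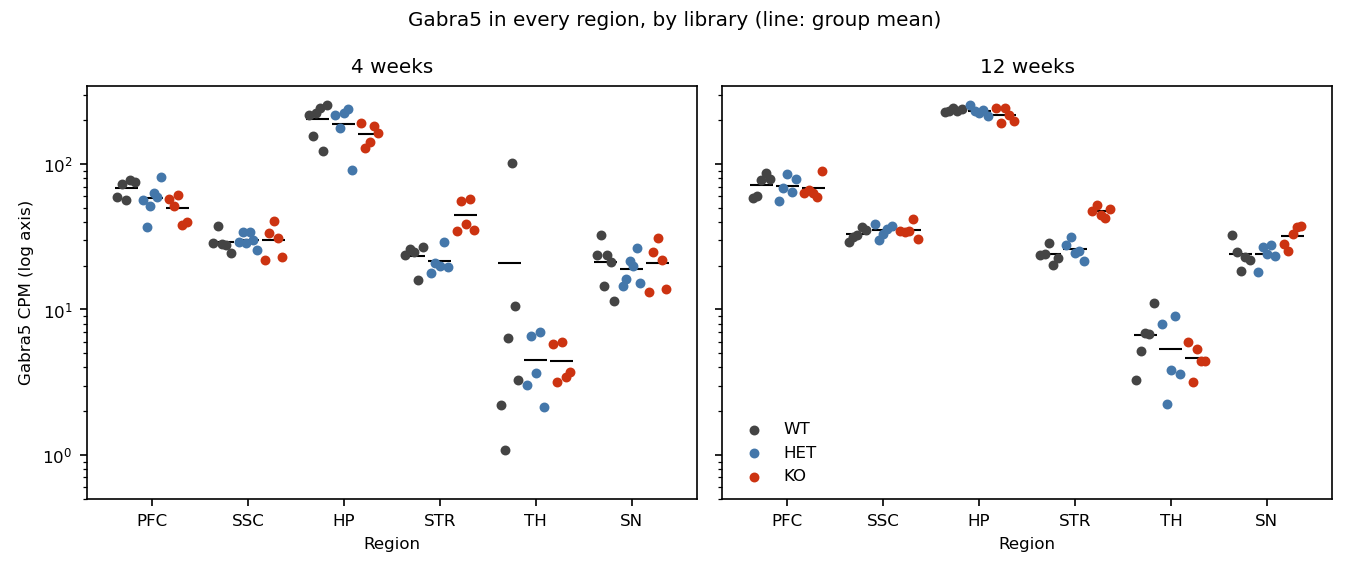
Gabra5 CPM (log axis) in every library by region and genotype at 4 weeks (left) and 12 weeks (right), with a line at each group mean. KO libraries are separated from WT libraries in striatum at both ages, while hippocampus, with the highest level, shows overlapping genotypes, and WT 913 stands alone at 102 CPM in thalamus at 4 weeks.

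With this increase, Gabra5 rose from 10.1% ± 1.89 to 18.2% ± 1.23 of the summed alpha level per kilobase in striatum at 12 weeks (mean ± SD, WT against KO, n = 5 each). The share of Gabra4 was 69.3% ± 4.19 in WT and 60.6% ± 3.04 in KO, and that of Gabra2 was 11.9% ± 1.05 and 11.7% ± 1.40. On the scaling over all libraries, KO striatum read 43.5 to 52.2 CPM at 12 weeks and WT hippocampus 216 to 230.2.

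Gabrg3, a gamma subunit gene nearby, differed by log2 -0.07 at 4 weeks and -0.06 at 12 weeks and was not called (edgeR adjusted p = 0.757 and 0.744). The antisense gene Gm9962 was at 1.25 CPM in WT and 1.25 in KO at 4 weeks and at 1.29 and 1.43 at 12 weeks. The labels do not say whether the counting used strand.

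Markers of other cell types were read beside the Gabra5 result. At 12 weeks none of the 6 tested markers of cortical and hippocampal excitatory neurons was called between KO and WT striatum, and 4 of the 10 listed fell below the filter. Closest to a call were Cux2 (log2 0.58 ± 0.16, edgeR adjusted p = 0.05005) and Nrgn (log2 -0.52 ± 0.16, edgeR adjusted p = 0.0854). The list's mean log2(CPM + 1) was 2.05 to 2.40 in KO and 2.10 to 2.20 in WT. At 4 weeks 3 of 5 KO libraries (51, 161 and 163) and 1 of 5 WT libraries (92) had all 10 of these markers at 1 CPM or more and a mean of 5.33 to 6.21, against 2.20 to 2.91 in the other WT and KO libraries. HET 931 also had all 10, with a mean of 3.84. The summed level of the 10 was 1322 to 2447 CPM in KO and 935 to 2780 in WT at 4 weeks, and 769 to 1183 and 997 to 1854 at 12 weeks. This sum did not follow the number of markers present. At 4 weeks KO 12, with 4 markers at 1 CPM or more, summed to 1780, and KO 163, with all 10, to 1805. KO 12 and KO 932, which have low values of this mean (2.20 and 2.27), carried Gabra5 at 34.8 and 35.2 CPM, above each WT library. KO 51, KO 161 and KO 163, with the high mean, carried more Gabra5 than KO 12 and KO 932, and WT 92 had the highest value of the WT libraries. With the marker mean as a covariate the KO difference was log2 0.74 (edgeR adjusted p = 0.0212) at 4 weeks and 0.98 (6.44e-05) at 12 weeks. Without the striatal libraries that stand apart the 4-week difference was 0.62 and not called (edgeR adjusted p = 0.109). The part of cortical tissue in the Gabra5 difference was not tested.

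Of 9 GABAergic interneuron markers, Sst, encoding somatostatin, was called higher in KO striatum at 12 weeks (log2 0.30 ± 0.06, edgeR adjusted p = 0.00884) and none at 4 weeks. Closest to a call at 4 weeks was Pvalb (log2 0.84 ± 0.23, edgeR adjusted p = 0.0529). The summed level of the 9 was 667 to 791 CPM in KO and 493 to 709 in WT at 12 weeks, and 621 to 883 and 509 to 664 at 4 weeks. The median log2 difference of the list was 0.45 at 4 weeks and -0.07 at 12 weeks. The part of interneurons in the Gabra5 difference was not tested. Of 10 markers of striatal projection neurons, Tac1 was called higher and Rgs9 and Pde10a lower at 12 weeks, and none was called at 4 weeks. Lower calls were also made for 1 of 7 tested dentate granule neuron markers, 1 of 8 astrocyte and 2 of 8 microglia markers at 4 weeks, and for 2 of 6 dentate granule neuron markers at 12 weeks. Beside these counts, 3.35% of all genes were called in KO striatum at 4 weeks and 4.42% at 12 weeks, in either direction.

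**Figure D5:**
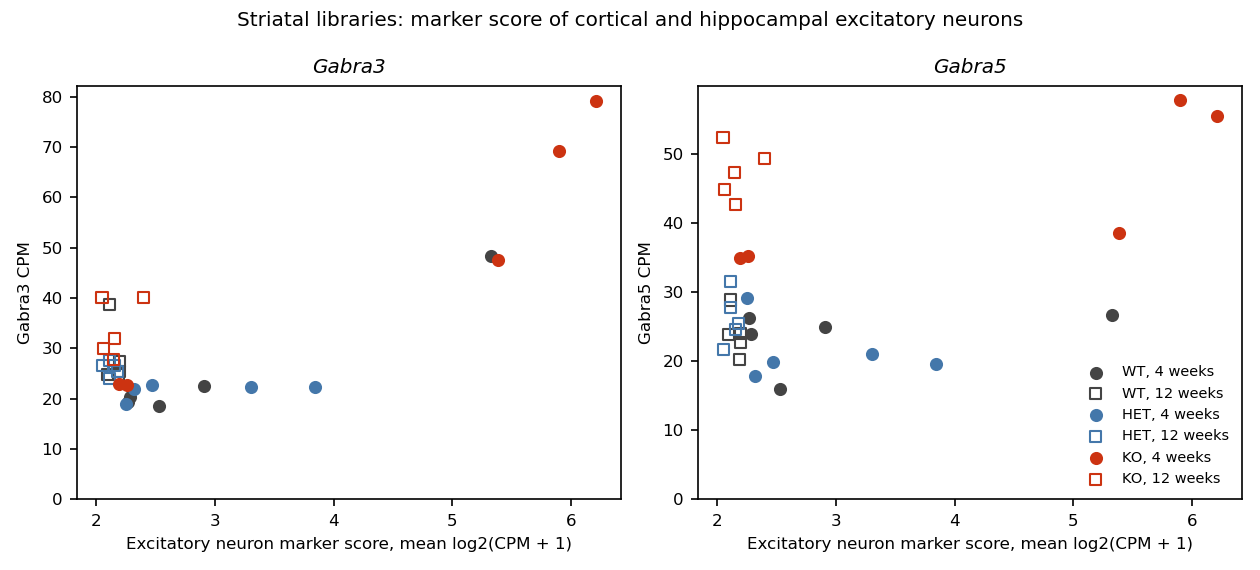
Level of Gabra3 (left) and Gabra5 (right) in each striatal library (CPM, vertical) against the mean log2(CPM + 1) of 10 cortical and hippocampal excitatory neuron markers (horizontal), by genotype (colour) and age (symbol). Gabra3 is high, at 47.5 to 79.1 CPM, in the 4 libraries with a marker mean of 5.33 to 6.21. Among KO libraries at 4 weeks Gabra5 is higher where the marker mean is high, and it is also above WT in KO libraries with a mean near 2.2.

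Gabra3 in striatum moved with those markers at 4 weeks, as Gabra5 did among the KO libraries. At 4 weeks KO libraries had 22.9, 79.1, 47.5, 69.3 and 22.8 CPM and WT libraries 20.3, 19.4, 22.4, 18.6 and 48.4. The 4 high values belong to the 4 libraries with the high marker mean. The KO difference of log2 0.90 ± 0.34 was not called (edgeR adjusted p = 0.158), and without those libraries it was 0.18 (adjusted p = 0.350). Leaving out WT 92 alone brought it to 1.26 with an adjusted p of 0.0304. Without the libraries in which under 10% of values were whole numbers it was 1.40 (adjusted p = 0.0220).

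At 12 weeks, where no striatal library had a high marker mean, Gabra3 was at 27.7, 40.2, 29.9, 31.9 and 40.1 CPM in KO and at 24.7, 25.4, 38.7, 24.8 and 27.3 in WT. The groups overlapped through WT 3, and the difference of log2 0.27 ± 0.13 was not called (edgeR adjusted p = 0.309). Leaving out WT 3 gave 0.41 (adjusted p = 0.0241).

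None of the other 5 genes was called in KO striatum. At 12 weeks the extrasynaptic pair was at 255 ± 31.7 CPM in WT and 242 ± 15.0 in KO for Gabra4, and at 190 ± 15.7 and 195 ± 19.0 for Gabrd (log2 -0.07 ± 0.09 and 0.04 ± 0.07). Gabra2 was at 62.4 ± 9.37 and 67.1 ± 12.1, Gabrb1 at 101 ± 10.3 and 107 ± 12.9, and Gabrb2 at 130 ± 10.4 and 136 ± 17.1. The 95% intervals of these 5 log2 differences reached from -0.25 at the lowest to 0.39 at the highest, all below the interval of Gabra5.

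At 4 weeks the KO libraries with high cortical markers also had the lowest Gabra4 and Gabrd. KO 161, KO 163 and KO 51 read 149, 188 and 176 CPM for Gabra4 against 351 and 279 CPM in KO 12 and KO 932, and 102, 137 and 122 for Gabrd against 243 and 181. WT libraries had 204 to 279 for Gabra4 and 157 to 208 for Gabrd. The KO differences of log2 -0.12 ± 0.18 for Gabra4 and -0.23 ± 0.18 for Gabrd turned to 0.34 and 0.20 without the libraries that stand apart, and neither was called in either case.

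Outside striatum no gene of the 7 was called between KO and WT at either age. In prefrontal cortex at 4 weeks Gabra5 was at 59.6, 72.9, 56.2, 78.3 and 74.8 CPM in WT and at 58.0, 51.8, 61.6, 38.2 and 40.2 in KO, with overlap (log2 -0.45 ± 0.17, edgeR adjusted p = 0.259). In substantia nigra at 12 weeks it was at 32.6, 24.9, 18.4, 23.1 and 21.9 in WT and 28.2, 25.4, 32.8, 36.8 and 37.7 in KO, also with overlap (0.41 ± 0.15, adjusted p = 0.649). In hippocampus, where its level is highest, the KO difference was -0.33 ± 0.22 at 4 weeks and -0.10 ± 0.07 at 12 weeks.

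In thalamus at 12 weeks Gabra3 was at 73.6, 76.7, 89.0, 109 and 101 CPM in WT and 66.7, 58.1, 61.3, 62.6 and 62.9 in KO, without overlap but not called (log2 -0.53 ± 0.24, edgeR adjusted p = 0.652). The HET libraries of that region spread from 38.6 to 106. Gabrd was at 184 to 210.8 in WT and 211.1 to 229 in KO, also just without overlap and not called (0.16 ± 0.09, adjusted p = 0.722). In this comparison 1.94% of all genes had groups that did not overlap and 0.0064% were called.

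In HET no combination of the 84 was called with edgeR, and 4 had an unadjusted p below 0.05. The share of all genes at that unadjusted cutoff was not computed. Among all genes the share called at 4 and 12 weeks was 0.00626% and 0.00613% in PFC, 0.00627% and 0.00629% in SSC, 0% and 0.00608% in HP, 0.00648% and 0.0064% in STR, 0.00639% and 0.0064% in TH, and 0% and 0.00606% in SN. DESeq2 called 1, Gabrd in substantia nigra at 4 weeks, where WT libraries had 0.527 to 119.6 CPM and HET libraries 0.162 to 4.12 (log2 -4.95, adjusted p = 0.0489). The 2 highest WT values belong to WT 42 and WT 92. Without the libraries that stand apart, edgeR gave log2 -2.52 ± 1.03 for Gabrd there, not called (adjusted p = 0.709). For the change of the KO effect between 4 and 12 weeks, no combination of 42 was called with edgeR or with DESeq2. With edgeR none had an unadjusted p below 0.05, and 0% of all genes were called in each region. Among all genes DESeq2 called 17 in SN, 5 in TH, 2 in HP and 1 each in PFC, SSC and STR.

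Other genes of GABA signalling were followed as lists. In KO striatum at 4 weeks 1 of 20 tested genes of the inhibitory postsynapse and receptor trafficking list was called higher, and 1 of 5 GABA-B receptor genes was called lower. At 12 weeks 1 of 20 postsynaptic genes was called higher and none lower, and no GABA-B receptor gene was called. None of 3 chloride transporter genes was called at either age. Among all genes tested in KO striatum 3.35% were called at 4 weeks and 4.42% at 12 weeks (1.59% and 1.82% in the higher direction). No member of these lists was called in the other 5 regions, nor in HET. Over these and the remaining lists (other GABA-A subunits, and GABA synthesis, transport and breakdown) the medians in KO striatum at 12 weeks ran from log2 0.01 to 0.17, beside 0.01 over all genes tested. The highest, 0.17 and 0.11, were those of the synthesis, transport and breakdown list and of the other subunits.

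Iqsec3, an exchange factor of the inhibitory postsynapse, was called at both ages. It was at 62.1 to 85.4 CPM in WT and 90.6 to 135 in KO at 4 weeks, and at 63.2 to 74.3 and 80.9 to 104 at 12 weeks, without overlap at either age. The log2 differences were 0.64 ± 0.11 (edgeR adjusted p = 0.00537) and 0.41 ± 0.07 (0.00199), and the effect was larger in striatum than in the other 5 regions at both ages (log2 0.96 ± 0.26 and 0.59 ± 0.11, adjusted p = 0.0310 and 0.000162). Without the libraries that stand apart the 4-week difference in striatum was 0.51 ± 0.08 and still called (edgeR adjusted p = 0.00628). The 4-week comparison with the other regions is given with all libraries only.

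Abat, the enzyme that breaks GABA down, was at 641 to 700.2 CPM in WT and 769 to 829 in KO striatum at 12 weeks (log2 0.25 ± 0.05, edgeR adjusted p = 0.00469). The groups did not overlap. The effect was larger in striatum than in the other 5 regions at 12 weeks (0.33 ± 0.08, edgeR adjusted p = 0.0136). At 4 weeks it was 0.12 ± 0.16, and 0.50 ± 0.16 without the libraries that stand apart, called in neither case (edgeR adjusted p = 0.766 and 0.116).

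Kctd12, an auxiliary subunit of GABA-B receptors, was at 107 to 130 in WT and 74.2 to 115 CPM in KO striatum at 4 weeks (log2 -0.44 ± 0.12, edgeR adjusted p = 0.0467). Without the libraries that stand apart it was -0.29 and not called (adjusted p = 0.249).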

How the data were processed

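The deposited table holds expected counts per gene symbol, estimated by the authors and not whole numbers. The submitters' processing notes name Salmon and the mm10 build, without version or role, and do not state whether strand was used. Values were rounded to whole numbers, filtered with filterByExpr, TMM-scaled and tested with edgeR 4.0.16 (R 4.3.3) by its quasi-likelihood test with Benjamini-Hochberg adjustment over all genes. Standard errors are the log2 change divided by the square root of F. Depth ran from 20.8 M to 73.3 M counts per library. Genotypes were compared within a region and age, ages within WT of a region, and regions within WT of an age.

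Alternatives were relative log expression factors, no low-count filter, DESeq2 1.42.0, limma 3.58.1 with a replicate block, fewer groups per fit, a marker covariate, coding length, and leaving out single or doubted libraries. In 16 libraries, all of them at 4 weeks, under 10% of values were whole numbers, and leaving them out was an alternative too. The members, gene lists, markers and doubted libraries were chosen with earlier results of these data known. All 7 members were named, with list genes called in any KO comparison (at most 3 per list and comparison, some of which are not reported here) and the 3 genes closest to each member by Pearson correlation of log2(CPM + 1) (pseudocount 1). Of the symbols, 95.5% matched GENCODE M21. The labels do not say what a sample number marks. Deviations of same-numbered samples correlated above 0.1 in 38 of 60 genotype pairs at 12 weeks, 31 of 76 WT region pairs at 4 weeks and 52 of 75 at 12 weeks. A sample matched its own number best in 25, 24 and 44 of these pairs, in the same order. Between WT and KO hippocampus at 12 weeks each of the 5 pairs correlated above 0.1 (0.105 to 0.331). Numbers 1, 4 and 5 there did not match their own number best. The WT and KO pairs of other regions differed, from -0.0464 to 0.0996 in substantia nigra and from -0.193 to 0.61 in prefrontal cortex. The fits have no block, and the block was an alternative.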

Additional observations from a re-analysis of the deposited data

Results flagged for a closer look

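The KO effect on Gabra5 was larger in striatum than in the other 5 regions at 12 weeks, by log2 1.02 (edgeR, test of the difference itself). In 30 of 252 combinations of gene and group, the highest or lowest library was set off from the rest, 19 at 4 weeks and 11 at 12 weeks. The measure was its gap to the nearest library divided by the range of the group, above Dixon's 95% critical value, so a small difference counts where the other libraries are close together. The nominal rate by chance is about 1 in 20 groups, and the share over all genes was not computed. All values are CPM.

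For Gabra2, substantia nigra HET 62 at 4 weeks was low at 12.4, striatum KO 2 at 12 weeks was high at 88.3, and in thalamus KO 163 at 4 weeks was high at 18.7 and KO 4 at 12 weeks low at 9.94. For Gabra3, hippocampus HET 941 at 4 weeks read 102 against 28.6 to 46.4 in the others, and hippocampus WT 5 at 12 weeks read 65.4. In striatum Gabra3 was low in HET 93 (18.9) and high in WT 92 (48.4) at 4 weeks, and high in WT 3 (38.7) at 12 weeks.

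For Gabra4, prefrontal KO 2 at 12 weeks was low at 75.4, against 120.1 to 128 in the others. Substantia nigra KO 91 (159) and WT 42 (218) and somatosensory WT 142 (162) were high at 4 weeks. For Gabra5, prefrontal KO 5 at 12 weeks was high at 89.2, and at 4 weeks striatum HET 93 was high at 29.1, striatum WT 914 low at 15.9 and thalamus WT 913 high at 102.

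For Gabrb1, substantia nigra WT 92 (30.3) and striatum HET 931 (82.0) were low at 4 weeks. For Gabrb2, prefrontal HET 941 (229) and somatosensory KO 12 (322) were high at 4 weeks, and at 12 weeks prefrontal KO 2 was low at 81.5 and somatosensory HET 1 high at 245. For Gabrd at 4 weeks, hippocampus HET 941 (72.7), substantia nigra HET 93 (4.12) and substantia nigra KO 91 (76.1) were high and thalamus KO 163 (182) was low. At 12 weeks Gabrd was low in prefrontal KO 5 (51.4) and high in substantia nigra WT 5 (2.69) and striatum HET 5 (219).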

How the results depend on the processing

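No called result reversed its direction under the settings run. Between KO and WT, 2 calls among the 7 genes became 1 without the doubted 4-week libraries and stayed 2 with the replicate block at 12 weeks, where Gabra5 in striatum was 0.99 (adjusted p = 5.01e-05). Leaving out single libraries gave 2 to 3, and leaving out the libraries with few whole numbers gave 3, the added call being Gabra3 in striatum at 4 weeks (1.40). For HET, 0 calls became 1 with DESeq2, and leaving out single libraries or adding the replicate block at 12 weeks gave 0. For age in WT, 5 calls became 3 without the low-count filter, 4 without the libraries with few whole numbers, and 3 to 6 without single libraries. The lowest count came without somatosensory library 1 or 2 of 12 weeks, or 142 or 914 of 4 weeks. For regions, 56 calls ranged from 54 to 64 without single libraries and stayed 56 with the replicate block. For the striatal effect against other regions, 1 call became 2 with DESeq2, was 1 with the replicate block (limma-voom), and ranged from 1 to 2 without single libraries. The added call came without striatum WT 3 of 12 weeks, or at 4 weeks without striatum KO 12, KO 932 or WT 92, substantia nigra WT 42 or WT 92, or thalamus KO 163, WT 142 or WT 23. The Gabra4 share of alpha RNA in WT striatum was 64.4% with coding length in place of 69.3%. The change of the KO effect with age had 0 calls in each setting. The causes were not tested. Library number and depth limit what could be detected for genes near 1 CPM, such as Gabrd in substantia nigra.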
